A study of Mus musculus with 24 samples.

Results

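The comparison described here is that of dorsal root ganglia taken 24 h after a sciatic nerve crush with ganglia taken 18 h after it, both from mice given camptothecin. It was chosen by label alone, as the camptothecin samples of these 2 times, and rests on 7 libraries, 4 at 24 h and 3 at 18 h, of the 19 libraries analysed and the 24 samples labelled. Per the labels, all mice were of the strain C57B/L6 and 12 weeks old, and all had a crushed sciatic nerve. Camptothecin, an inhibitor of DNA topoisomerase I, was injected into the peritoneum at 2 mg/kg, 30 min after the crush, and the vehicle arm received no drug. The 6 vehicle libraries of these times, 3 at 18 h and 3 at 24 h, gave the same interval without camptothecin. The remaining groups were taken at 36 h. No uninjured group was labelled, so levels are compared between times and not with a resting ganglion. RNA came from whole ganglia, which hold the cell bodies of sensory neurons, satellite glia, Schwann cells, vessels, fibroblasts and immune cells. In such bulk tissue, fewer cells of a type and less RNA per cell cannot be told apart. Whether each sample was a different mouse is not stated in the labels. The p-values therefore reflect only the scatter among these libraries, part or all of which may be technical.

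When a peripheral axon is damaged, the sensory neuron switches from transmission to repair. Transcription factors such as ATF3, JUN and SOX11 appear in its nucleus, neuropeptides such as galanin and neuropeptide Y are made anew, growth-associated proteins accumulate, and many ion channels and transmitter receptors decline. Topoisomerase I relieves the twisting of DNA ahead of RNA polymerase, and its inhibitors are known to lower the expression of very long neuronal genes.

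Depth ran from 6.64 M to 10.1 M counts at 18 h (8.02 ± 1.85 M, SD, n = 3) and from 8.44 M to 15 M counts at 24 h (11.4 ± 2.91 M, SD, n = 4). The vehicle libraries were shallower, with 4.04 ± 0.388 M at 18 h and 6.84 ± 1.28 M at 24 h (SD, n = 3 each). Neuronal markers were abundant in all 7 camptothecin libraries: the 18 genes of the pan-neuronal list summed to between 29700 and 39300 counts per M counts (CPM). The libraries numbered 4 stood apart. Across transcripts, which are not independent, the rank correlation of 24 h library 4 with 18 h library 4 was 0.955, whereas its correlation with the other 3 libraries of its own group ran from 0.910 to 0.926. No replicates of these groups matched within counting noise, as their chi-square divided by its degrees of freedom ran from 8.04 to 23.2. The correlation of a library's deviation with GC content ran from -0.0797 to 0.182 at 18 h and from 0.0662 to 0.319 at 24 h. The GC trend was removed per library in an alternative given at the end, where fewer vehicle transcripts passed. Results that turn on library 4 are given with and without all libraries of that number, a setting chosen after the data were seen.

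Under camptothecin, 0 of 18606 tested transcripts passed the threshold between 18 h and 24 h, an adjusted p under 0.05 by edgeR's quasi-likelihood test. The smallest adjusted p by edgeR was 0.962. At an unadjusted p under 0.05 there were 940 transcripts, which is 5.05% of those tested, 474 higher at 24 h (2.55%) and 466 lower (2.5%). All 4 libraries of 24 h lay above all 3 of 18 h for 578 transcripts (3.11%) and below them for 597 (3.21%). DESeq2 called 1 transcript, Cckbr. In vehicle, 43 transcripts passed over the same 6 h, 30 that rose (0.161% of those tested) and 13 that fell (0.0699%), and 2285 had an unadjusted p under 0.05 (12.3%). The 30 became 5 without vehicle 18 h library 4, 70 without vehicle 18 h library 3 and 0 with library depth as a covariate. The 13 became 0 to 6 when any single library of these vehicle groups was left out, 0 with depth as a covariate and 111 without the libraries numbered 4. The difference of the time change between the arms, tested as an interaction, passed for 0 transcripts by edgeR, with a smallest adjusted p of 0.34 and 785 transcripts at an unadjusted p under 0.05 (4.22%). DESeq2 called 4 for that difference, all with a smaller change or a decline under camptothecin: Hsp25-ps1, Gm9817, Ccdc92 and Pex14. The first 2 overlap at 1 locus of chromosome 13 (45078498 to 45079127 and 45078692 to 45081222) on opposite strands, so their reads cannot be told apart and they count as 1 signal, also among the 30. An arm in which transcripts passed and an arm in which none did are therefore not shown to differ by the main test.

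**Figure D1:**
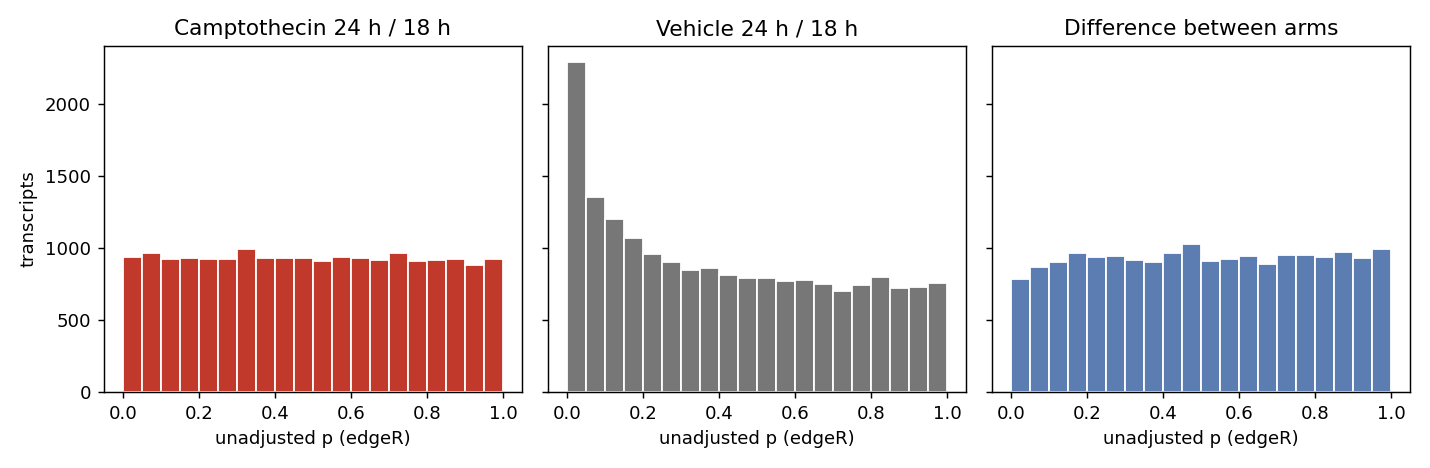
Number of tested transcripts (vertical axis) in each 0.05-wide bin of unadjusted edgeR p (horizontal axis) for the time change under camptothecin, the time change in vehicle and the difference between them. The first bin holds 940 transcripts under camptothecin, 2285 in vehicle and 785 for the difference.

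Without the libraries numbered 4, 8 transcripts passed under camptothecin of 19079 tested, 5 higher at 24 h (0.0262%) and 3 lower (0.0157%), and 1706 had an unadjusted p under 0.05 (8.94%). These 5 were Cckbr, a receptor for cholecystokinin and gastrin, Acvr1c, an activin-type receptor, the growth factor Fgf3, the macrophage mannose receptor Mrc1 and the chemokine Ccl9. Among those lower were Dnm3, a dynamin of synapses, and 1 transcript of Eif2s3y, a Y-linked translation factor. Acvr1c, Fgf3 and Dnm3 were singled out after their values were seen. In that setting 3 libraries of 24 h stood against 2 of 18 h.

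Sequence is shown for the promoters of 2 of the injury genes described next, Cckbr because it had the smallest p among transcripts higher at 24 h, and Sprr1a because it holds a motif of AP-1, the dimer family to which JUN and ATF3 belong. Each is the RefSeq window of 300 bases on GRCm38.p6 that lies nearest to the measured transcript's start. Capitals mark the AP-1 motif TGACTCA on either strand.
Cckbr, chr7:105425481-105425780, plus strand: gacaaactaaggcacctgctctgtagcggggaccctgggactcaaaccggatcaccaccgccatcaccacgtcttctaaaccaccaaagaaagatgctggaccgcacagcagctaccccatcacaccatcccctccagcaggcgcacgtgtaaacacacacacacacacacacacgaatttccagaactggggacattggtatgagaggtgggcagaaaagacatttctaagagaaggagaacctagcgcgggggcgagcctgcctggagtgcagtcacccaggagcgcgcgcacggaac
Sprr1a, chr3:92485832-92486131, minus strand: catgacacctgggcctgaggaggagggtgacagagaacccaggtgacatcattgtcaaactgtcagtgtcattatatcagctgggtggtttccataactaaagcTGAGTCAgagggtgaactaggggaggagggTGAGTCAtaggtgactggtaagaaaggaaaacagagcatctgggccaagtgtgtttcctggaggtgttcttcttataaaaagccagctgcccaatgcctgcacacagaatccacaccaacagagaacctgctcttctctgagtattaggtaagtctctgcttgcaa
The motif was searched on both strands, with no overlap with the other motif searched, the cyclic-AMP element TGACGTCA. The Sprr1a window held 2 matches to the first and none to the second, and the Cckbr window held neither. Over all 32851 RefSeq promoter windows of the same length, 5.2% held the AP-1 motif and 1.79% the cyclic-AMP element. Of the 30 transcripts that rose in vehicle, 17 matched a window by symbol and chromosome, with no limit on distance. Of these, 2, Sprr1a and Clic1, held the AP-1 motif, while 0 held the cyclic-AMP element. The window of Capns1 lay 4927 bases from its transcript's start, so it may not be that transcript's promoter. That of Clic1 lay 277 bases away, and the others were nearer.

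Among receptors of the injury response, Cckbr and Gpr151 were higher at 24 h in every library. Cckbr (chromosome 7, 105425731 to 105436339, plus strand, 5 exons, GRCm38) stood at 9.22, 10.6 and 16.9 CPM in the 18 h libraries and at 29.1, 29.1, 28.5 and 22.2 CPM in the 24 h libraries. The groups did not overlap, and the lowest value of 24 h and the highest of 18 h both belonged to libraries numbered 4. Its log2 fold change was 1.15 ± 0.25 (SE), with an unadjusted p of 0.000159 and an adjusted p of 0.962 by edgeR. Without the libraries numbered 4 it was 1.54, with an adjusted p of 0.00527 by edgeR. In vehicle Cckbr rose by 2.13 ± 0.32 on the log2 scale, from 4.96, 8.2 and 2.03 CPM to 20.9, 22.8 and 21.8 CPM. Its lowest vehicle value was that of 18 h library 4, and vehicle 24 h had no library of that number. Between the arms the difference was -0.98 (unadjusted p = 0.0239), and -0.21 (unadjusted p = 0.538), with vehicle at 1.75, without the libraries numbered 4. At 24 h the arms stood near each other, and the camptothecin libraries were the higher at 18 h, where the 2 groups did not overlap.

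Gpr151, an orphan receptor of injured sensory neurons, gave a similar picture. It measured 23.1, 35.0 and 40.9 CPM at 18 h and 55.0, 60.3, 45.9 and 46.0 CPM at 24 h. Every 24 h library lay above every 18 h library. The log2 fold change was 0.65 ± 0.18 under camptothecin (unadjusted p = 0.00163) against 1.70 ± 0.21 in vehicle, and the difference between the arms was -1.05, with an unadjusted p of 0.00101 and an adjusted p of 1 by edgeR. Without the libraries numbered 4 the arms gave 0.88 and 1.59, and the difference was -0.71 (unadjusted p = 0.026). Of the 14 tested injury receptors, Cckbr and Gpr151 were the 2 with an unadjusted p under 0.05, both higher (2.55% of all tested), and the list's median was 0.07 against 0.17 in vehicle. Lifr, the receptor chain for leukaemia inhibitory factor, stayed between 1200 and 1410 CPM in all 7 libraries, and Il6ra, which binds interleukin 6, had a log2 fold change of 0.52 ± 0.26 with overlapping groups.

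None of the secreted signals passed. Of 11 tested injury peptides and secreted factors, 10 had a log2 fold change above 0, and 0 of them had an unadjusted p under 0.05; the median was 0.31, against 0.00 over all transcripts. In vehicle 3 of the 11 passed and the median was 0.70. Without the libraries numbered 4 the medians were 0.51 and 0.67. Gal, which encodes galanin, stood at 36.0, 31.8 and 51.8 CPM at 18 h and at 68.1, 54.7, 50.5 and 48.3 CPM at 24 h. Only 18 h library 4 reached into the range of 24 h. The log2 fold change was 0.47 ± 0.23, and 0.78 without the libraries numbered 4 (unadjusted p = 0.000661, adjusted p = 0.145 by edgeR). Gal rose by 1.65 ± 0.29 in vehicle, from 12.8, 24.6 and 7.69 CPM to 54.0, 38.9 and 47.4 CPM, and its mean at 36 h under camptothecin was 213 CPM. The vehicle rise was 1.33 without 18 h library 4, the lowest. The difference between the arms was -1.17 (unadjusted p = 0.00435), and -0.56 (unadjusted p = 0.0737) without the libraries numbered 4.

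Npy, which encodes neuropeptide Y, had overlapping groups under camptothecin and rose in vehicle. Under camptothecin it measured 4.08, 3.31 and 9.54 CPM at 18 h and 8.07, 5.88, 6.03 and 7.17 CPM at 24 h. Library 4 of 18 h was the highest of all 7, so the groups overlapped. The log2 fold change was 0.27 ± 0.30, and it was -0.02 without 18 h library 3 and 0.86 without the libraries numbered 4. Vehicle libraries went from 1.17, 1.06 and 0.452 CPM to 4.71, 8.37 and 4.90 CPM, a rise of 2.79 ± 0.47. The vehicle 18 h values rest on only 4, 4 and 2 counts, so the size of this rise is uncertain. The difference between the arms was -2.52, with an unadjusted p of 0.000239 and an adjusted p of 0.742 by edgeR. Without the libraries numbered 4 it was -1.61 (unadjusted p = 0.00769), with vehicle at 2.46. By 36 h the camptothecin mean was 18.7 CPM.

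Nts, which encodes neurotensin, followed Gal, with 33.0, 35.1 and 58.4 CPM at 18 h, 72.2, 62.4, 49.7 and 47.8 CPM at 24 h and a log2 fold change of 0.46 ± 0.26. Crh, which encodes corticotropin-releasing hormone, lay between 0.901 and 2.23 CPM in all 7 libraries (log2 fold change 0.60 ± 0.47). In vehicle Crh rose from at most 0.292 CPM, which is 1 count, to between 1.74 and 4.53 CPM. Fgf3 stood at 4.54, 7.41 and 14.4 CPM at 18 h and at 19.5, 21.3, 13.7 and 10.3 CPM at 24 h. The 2 libraries numbered 4 again made its groups overlap. Csf1, the macrophage growth factor released by injured neurons, had a log2 fold change of 0.66 ± 0.42, and Tgfb1, a growth factor that many cell types make, one of 0.93 ± 0.45 with groups that did not overlap but values of at most 4.36 CPM.

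**Figure D2:**
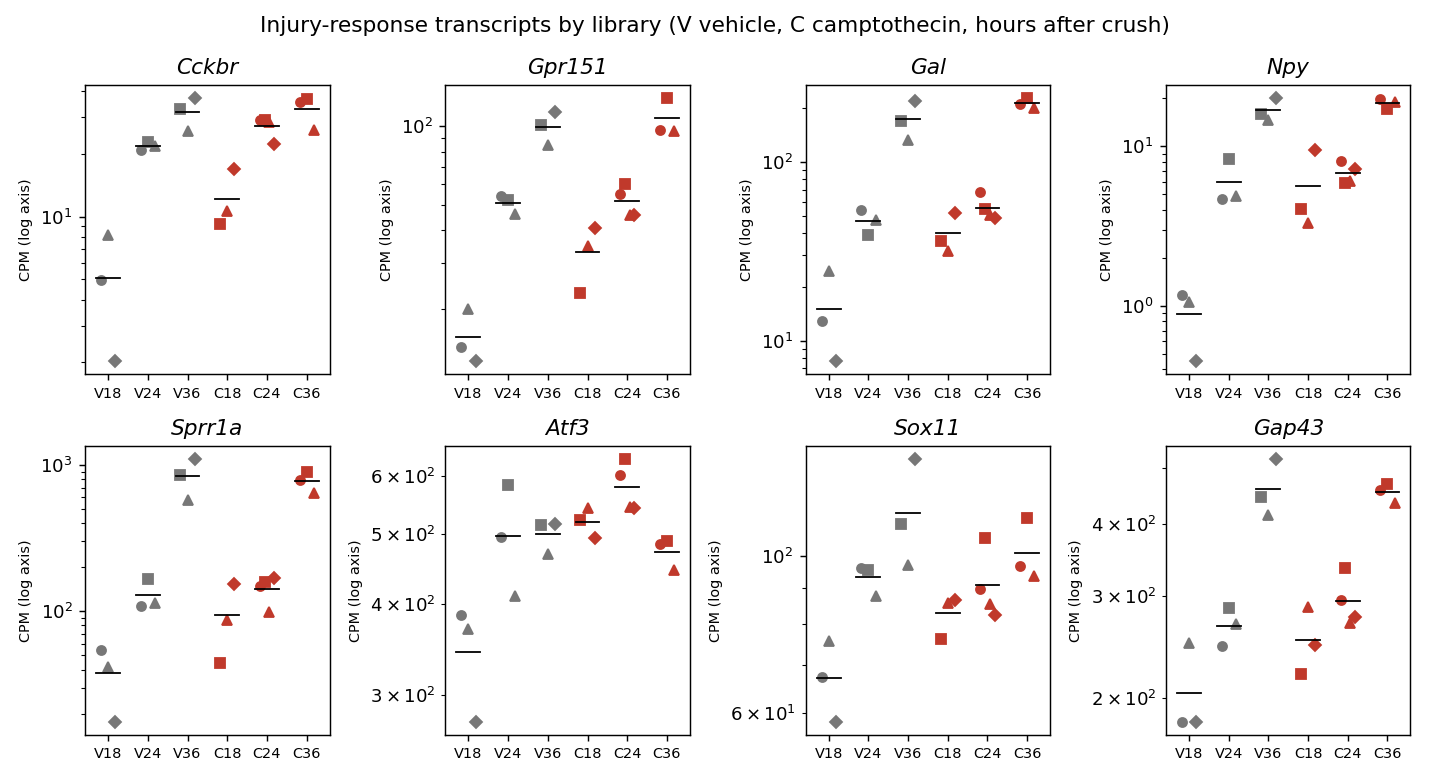
Level of 8 injury-response transcripts in CPM (log axis) in each library of vehicle (grey, V) and camptothecin (red, C) at 18, 24 and 36 h after the crush. Each symbol is 1 library, its shape gives the library number (circle 1, square 2, triangle 3, diamond 4), and the line is the group mean. The camptothecin means of Gal and Sprr1a reached 213 and 774 CPM at 36 h, above every library of 24 h.

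The transcription factors that head the response had small differences between 18 h and 24 h. Atf3 measured 521, 542 and 493 CPM at 18 h and 602, 633, 544 and 542 CPM at 24 h. The lowest of 24 h and the highest of 18 h were level at 542 CPM. Its log2 fold change was 0.16 ± 0.12 under camptothecin and 0.53 ± 0.13 in vehicle, where 18 h stood at 387, 370 and 276 CPM. Jun was slightly lower at 24 h in every library, at 409 to 433 CPM against 441 to 491 CPM, with a log2 fold change of -0.12 ± 0.09. Sox11, which promotes axon growth, lay between 76.4 and 86.6 CPM at 18 h and between 82.4 and 106 CPM at 24 h, a log2 fold change of 0.13 ± 0.13 that was -0.03 with library depth as a covariate. Of 17 tested regeneration transcription factors, 1 had an unadjusted p under 0.05, a share near the 5.05% of all tested. It was the retinoic acid receptor Rarb (0.65 ± 0.30, and 0.40 without 24 h library 3, which stood at 11.7 CPM against 6.46 to 6.68 CPM), and the median was 0.13 against 0.36 in vehicle, or 0.15 against 0.23 without the libraries numbered 4. Klf4, a factor that restrains axon growth, had a log2 fold change of 0.52 ± 0.29 with overlapping groups. The measured Stat3 transcript, annotated as a retained intron, had at most 5.91 CPM, too few for a direction, with a log2 fold change of 0.19 ± 0.45. Among 18 AP-1 and immediate early genes, Fosl2 (0.27 ± 0.12) and Klf2 (0.73 ± 0.35) had an unadjusted p under 0.05 (5.05% of all tested). Fos, the classic activity gene, lay between 2.22 and 5.90 CPM, and Nr4a1, another, between 14.4 and 35.2 CPM, both with overlapping groups.

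Among the effectors of regrowth, Sprr1a (chromosome 3, 92483952 to 92485895, minus strand, 2 exons), a small proline-rich protein that promotes axon outgrowth, spread widely within 18 h. It stood at 44.0, 86.7 and 154 CPM at 18 h and at 148, 158, 98.6 and 168 CPM at 24 h. Library 4 of 18 h lay within the range of 24 h. The log2 fold change was 0.59 ± 0.33, and 1.04 without the libraries numbered 4, against a rise of 1.8 ± 0.38 in vehicle that was 1.48 in that setting. Between the arms the difference was -1.21 (unadjusted p = 0.0222), and -0.44 without the libraries numbered 4 (unadjusted p = 0.247). Gap43, the growth cone protein, measured 220, 288 and 247 CPM and then 296, 336, 270 and 276 CPM, a log2 fold change of 0.23 ± 0.12. Cdkn1a, a cell cycle inhibitor and p53 target that injured neurons also express, stood at 72.8 to 86.3 CPM at 18 h and 93.0 to 111 CPM at 24 h, with no overlap (0.37 ± 0.18). Of 27 tested effectors, 19 had a log2 fold change above 0, and the median was 0.07 against 0.57 in vehicle. Without the libraries numbered 4 these medians were 0.25 and 0.36. At an unadjusted p under 0.05, 2 of the 27 were higher (2.55% of all tested) and 1 was lower (2.5%). The higher were Sez6l (0.83 ± 0.36), a membrane protein of neurons, and the heparan sulphate proteoglycan Sdc1 (0.41 ± 0.19). The lower was Socs3, a brake on cytokine signalling through STAT3, at 11.1 to 18.6 CPM and then 7.96 to 13.6 CPM (-0.46 ± 0.22).

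The 30 rises in vehicle rest on other libraries than the camptothecin comparison, but both contrasts came from a single fit with a shared estimate of spread. Transcripts picked for a small p in vehicle are thus also picked for low spread, which favours a small p under camptothecin. Mean depth was also higher at 24 h in both arms. Under camptothecin 28 of the 30 had a log2 fold change above 0, and 14 were higher at an unadjusted p under 0.05, where 2.55% of all tested transcripts were. In 10 of them every 24 h library lay above every 18 h library, against 3.11% of all tested. Their median log2 fold change was 0.31, against 1.09 in vehicle, and 0.45 against 1.02 without the libraries numbered 4. All 30 were smaller under camptothecin, but they were picked for passing in vehicle, which favours larger values there. Serpinb1a, an inhibitor of neutrophil proteases, gave 15.4, 12.8 and 14.8 CPM at 18 h and 17.2, 13.8, 15.5 and 16.1 CPM at 24 h. That level was already the 24 h level of vehicle (14.8, 12.8 and 14.5 CPM), which had started from 4.67, 7.41 and 5.20 CPM. Hsp25-ps1, a processed copy of the small heat shock gene Hspb1 whose reads cannot be assigned with certainty, had a log2 fold change of 0.28 ± 0.12 against 1.15 ± 0.14.

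The other 2 of the 30 had values below 0. Ccdc92 measured 15, 14.2 and 12.4 CPM at 18 h and 11.1, 9.66, 9.83 and 11.9 CPM at 24 h under camptothecin, a log2 fold change of -0.39 ± 0.17 with no overlap. In vehicle it rose from 6.42, 6.88 and 5.20 CPM to 10.6, 15.8 and 13.0 CPM. It had the smallest p for a difference between the arms (-1.49, unadjusted p = 1.83e-05, adjusted p = 0.34 by edgeR). Pex14, a docking protein of peroxisomes, was second (-1.36), with -0.25 ± 0.18 under camptothecin and a rise of 1.11 ± 0.22 in vehicle. Shh, the ligand sonic hedgehog, was also among the 6 smallest p-values for the difference (-0.97), with 152, 136 and 104 CPM at 18 h and 115, 116, 95.6 and 99.9 CPM at 24 h under camptothecin. Its vehicle libraries went from 80.7 to 99.8 CPM at 18 h to between 117 and 156 CPM at 24 h without passing.

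**Figure D3:**
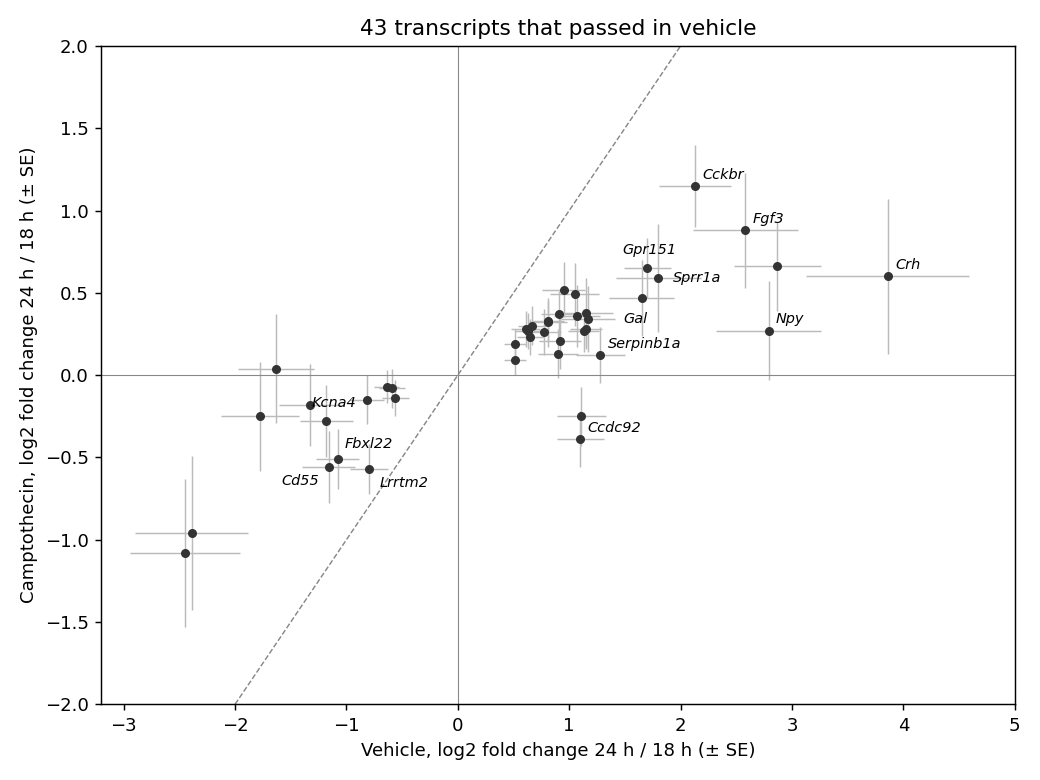
Log2 fold change of 24 h against 18 h in vehicle (horizontal axis) and under camptothecin (vertical axis), each ± SE, for the 43 transcripts that passed in vehicle; the dashed line marks equal change. All 30 that rose in vehicle lie below the line, and 28 of them lie above 0.

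The 13 transcripts that fell in vehicle were lower under camptothecin as well in 12 cases, 4 of them at an unadjusted p under 0.05 (2.5% of all tested were lower), with a median of -0.25 against -1.16. The shared estimate of spread bears on these 4 as well. When any 1 vehicle library was left out, at most 6 transcripts passed as lower. Lrrtm2, a postsynaptic adhesion protein, came closest to its vehicle change: 168, 201 and 124 CPM at 18 h and 95.0, 122, 108 and 116 CPM at 24 h, a log2 fold change of -0.57 ± 0.15 against -0.80 ± 0.17. Its groups did not overlap. Cd55, a regulator of complement on sensory neurons, stood at 247, 287 and 196 CPM and then at 130, 181, 193 and 155 CPM, a log2 fold change of -0.56 ± 0.22. Vehicle libraries of 18 h held more of it, at 471 to 615 CPM. Kcna4, a fast inactivating potassium channel, lay between 52.6 and 70.0 CPM at 18 h under camptothecin and between 40.4 and 63.8 CPM at 24 h (-0.28 ± 0.22), while vehicle fell from 165 to 225 CPM to between 66.3 and 98.0 CPM. Fbxl22 (-0.51 ± 0.18) was lower with no overlap, and the splicing factor Srek1 (-0.07 ± 0.10) overlapped.

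Ion channels and several neuronal genes had lower values at 24 h, none past the threshold with all libraries. Of 31 tested sensory ion channels, 6 were lower at an unadjusted p under 0.05 (2.5% of all tested) and 0 higher (2.55%). Of the 31, 24 had a log2 fold change at or below 0. The median was -0.12 against -0.25 in vehicle, or -0.17 against -0.19 without the libraries numbered 4. Kcnb2, a delayed rectifier, measured 366, 329 and 279 CPM at 18 h and 223, 228, 268 and 252 CPM at 24 h (-0.42 ± 0.12, unadjusted p = 0.00259). Kcnt2, a sodium-activated potassium channel, measured 16.2 to 27.4 CPM and then 10.7 to 13.5 CPM (-0.88 ± 0.32). For both, the 24 h libraries all lay below the 18 h libraries, and vehicle gave -0.36 and -0.86. Kcnv1, a modifier subunit (-0.48 ± 0.21), was lower with overlap. Of the 18 pan-neuronal genes, the neurofilaments Nefm (-0.29 ± 0.12) and Nefh (-0.25 ± 0.10) were lower at an unadjusted p under 0.05 (2.5% of all tested). The RNA-binding protein Elavl3 was higher at that level (0.36 ± 0.12), where 2.55% of all tested were. The difference between the arms for Nefh was -0.54 (unadjusted p = 0.00185), where vehicle gave 0.28 ± 0.11.

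Very long genes, of interest because topoisomerase I inhibitors act on them, had a median log2 fold change of -0.22 over 22 tested members, with 19 of 22 below 0 or at it and 3 lower at an unadjusted p under 0.05. Over all transcripts, 9192 of 18606 were above 0 and 2.5% were lower at that level. Vehicle gave a median of -0.04. Without the libraries numbered 4 the medians were -0.34 under camptothecin and -0.02 in vehicle. Prkg1, a cyclic-GMP kinase, was lower with no overlap (-0.51 ± 0.19), and vehicle gave -0.56 ± 0.20. Tenm2, a teneurin adhesion protein, was lower under camptothecin (-0.42 ± 0.19) and had 0.28 ± 0.21 in vehicle. Dnm3 stood at 1020, 846 and 686 CPM at 18 h and at 620, 592, 646 and 733 CPM at 24 h, with library 4 alone overlapping.

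Top1, the target of the drug, measured 181, 184 and 149 CPM at 18 h and 148, 152, 142 and 126 CPM at 24 h, a log2 fold change of -0.27 ± 0.14 with overlap. Top2b, the topoisomerase II of neurons, gave -0.13 ± 0.12. Among 21 DNA repair genes, 0 had an unadjusted p under 0.05 in either direction (5.05% of all tested), and Atm, the double-strand break kinase, gave -0.26 ± 0.13. Of 23 p53 targets, 2 were higher and 0 lower at that level (2.55% and 2.5% of all tested). Their median was 0.18 against -0.01 in vehicle, and the polo-like kinase Plk2 was among the 2 (0.28 ± 0.13).

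Most of the tested macrophage genes had higher values at 24 h, none past the threshold with all libraries. Of the 12 tested, 10 had a log2 fold change above 0 and 5 were higher at an unadjusted p under 0.05, where 2.55% of all transcripts were. The median was 0.52 against 0.02 in vehicle, or 0.51 against -0.25 without the libraries numbered 4. Those not above 0 were Ptprc (-0.22) and Adgre1 (-0.15), and Ccr2 gave 0.01. The summed level of the 12 was 90.0, 95.2 and 106 CPM at 18 h and 179, 133, 163 and 108 CPM at 24 h. Every library of 24 h was thus above 18 h but library 4 by little. In vehicle the sum ran from 96.1 to 134 CPM at 18 h and from 108 to 128 CPM at 24 h. Mrc1, a large part of each camptothecin sum, measured 39.3, 48.2 and 73.6 CPM and then 92.8, 78.0, 90.6 and 66.5 CPM. The libraries numbered 4 overlapped, and the log2 fold change was 0.61 ± 0.20 with all libraries and 0.99 without them (adjusted p = 0.0397 by edgeR). The complement genes C1qb (0.67 ± 0.26) and C1qc (0.65 ± 0.30) and the lysosomal marker Cd68 (1.27 ± 0.54) were among the 5, the last at no more than 1.27 CPM. The difference between the arms was not past the threshold for any of these, and it had an unadjusted p of 0.0516 for Mrc1.

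Ccl9, a chemokine of myeloid cells, split by library. It stood at 4.39, 3.21 and 4.13 CPM at 18 h and at 15.7, 15.9, 16.9 and 3.49 CPM at 24 h. At 24 h, 3 libraries were higher by a wide margin and library 4 was at the 18 h level. The log2 fold change was 1.74 ± 0.43 with it, and 2.06 with an adjusted p of 0.0239 by edgeR without 24 h library 4. Vehicle held between 4.88 and 13.5 CPM over both times. Neutrophil and red cell markers were high in single libraries of both times: the 7 neutrophil genes summed to 231, 8.01 and 27.1 CPM at 18 h and to 201, 54.2, 62.4 and 26.4 CPM at 24 h, and the 7 red cell genes were highest in 18 h library 2 (38.7 CPM) and 24 h library 1 (37.2 CPM). The part of such cells in the other results was not tested.

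**Figure D4:**
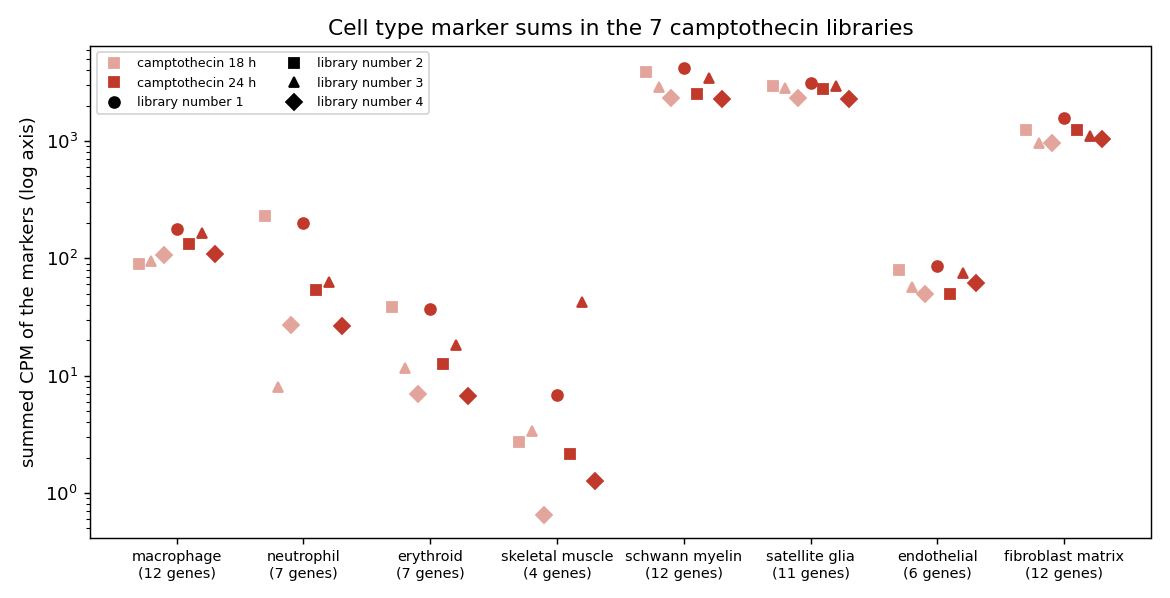
Summed CPM (log axis) of the tested marker genes of 8 cell types in each camptothecin library, 18 h in pale and 24 h in dark red, with the shape giving the library number. The macrophage sum ran from 90.0 to 106 CPM at 18 h and from 108 to 179 CPM at 24 h, and the skeletal muscle sum reached 42.2 CPM in 24 h library 3.

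Connective tissue genes had medians above 0. The 12 fibroblast and matrix genes had a median of 0.25, against 0.09 in vehicle. Of the 12, 10 had a log2 fold change above 0, and 2 were higher at an unadjusted p under 0.05 (2.55% of all tested). The lowest value was that of Lox (-0.59). Lum, a collagen-binding proteoglycan, measured 74.6, 74.7 and 77.5 CPM and then 125, 129, 102 and 81.8 CPM (0.53 ± 0.19) with no overlap. Fn1, which encodes fibronectin, gave 0.49 ± 0.22 and was highest in 24 h library 1 at 277 CPM. All 8 mural cell genes had a log2 fold change above 0, as did 9192 of the 18606 transcripts tested. Their median was 0.37 against 0.02 in vehicle, or 0.28 against 0.07 without the libraries numbered 4. The largest value was that of Des (3.3), far above the next, that of Cnn1 (0.45). Whether the Des value came from mural cells was not tested. Of the 8, 1 was higher at an unadjusted p under 0.05 (2.55% of all tested), and 0 had groups that did not overlap. The 4 tested skeletal muscle genes had a median of 2.78, 3 of them higher at an unadjusted p under 0.05 (2.55% of all tested). Ckm, the muscle creatine kinase, did not overlap. Their sum was at most 6.80 CPM in 6 libraries and 42.2 CPM in 24 h library 3, with Acta1, the muscle actin, at 18.8 CPM there. Without that library Ckm gave 1.36, Mylpf 1.19, Acta1 0.54 and Actn3 -0.20, none past the threshold. The 12 Schwann cell genes had a median of 0.08 and the 11 satellite glia genes one of -0.07, and Sox10, the glial transcription factor, gave 0.30 ± 0.14.

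Glucocorticoid-responsive genes had the highest median of the lists with more than 4 tested members, 0.59 over 12 genes against 0.04 in vehicle, and 3 of the 12 were higher at an unadjusted p under 0.05, where 2.55% of all tested were. Zbtb16, a zinc finger repressor induced by glucocorticoids, measured 5.29, 5.51 and 5.80 CPM at 18 h and 16.0, 9.99, 8.33 and 7.07 CPM at 24 h (0.89 ± 0.33). The 24 h libraries were all higher, while vehicle went from 17.8 ± 9.94 CPM (SD, n = 3) to between 7.15 and 11.2 CPM. The difference between the arms was 1.89 (unadjusted p = 0.000839, adjusted p = 1 by edgeR), and 2.46 with an adjusted p of 0.0463 by edgeR without the libraries numbered 4, the 1 transcript (0.00524%) that passed for the difference in that setting. Hif3a (0.85 ± 0.31), a hypoxia-inducible factor, and Ddit4 (0.86 ± 0.30), an inhibitor of mTOR signalling, were the other 2. The labels give no time of day, and its part was not tested. Of 17 clock genes, Hlf (0.68 ± 0.23) and Per2 (0.69 ± 0.26), both rhythmic transcription regulators, were higher at an unadjusted p under 0.05 (2.55% of all tested). Vehicle gave 0.42 and 0.02 for them.

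**Figure D5:**
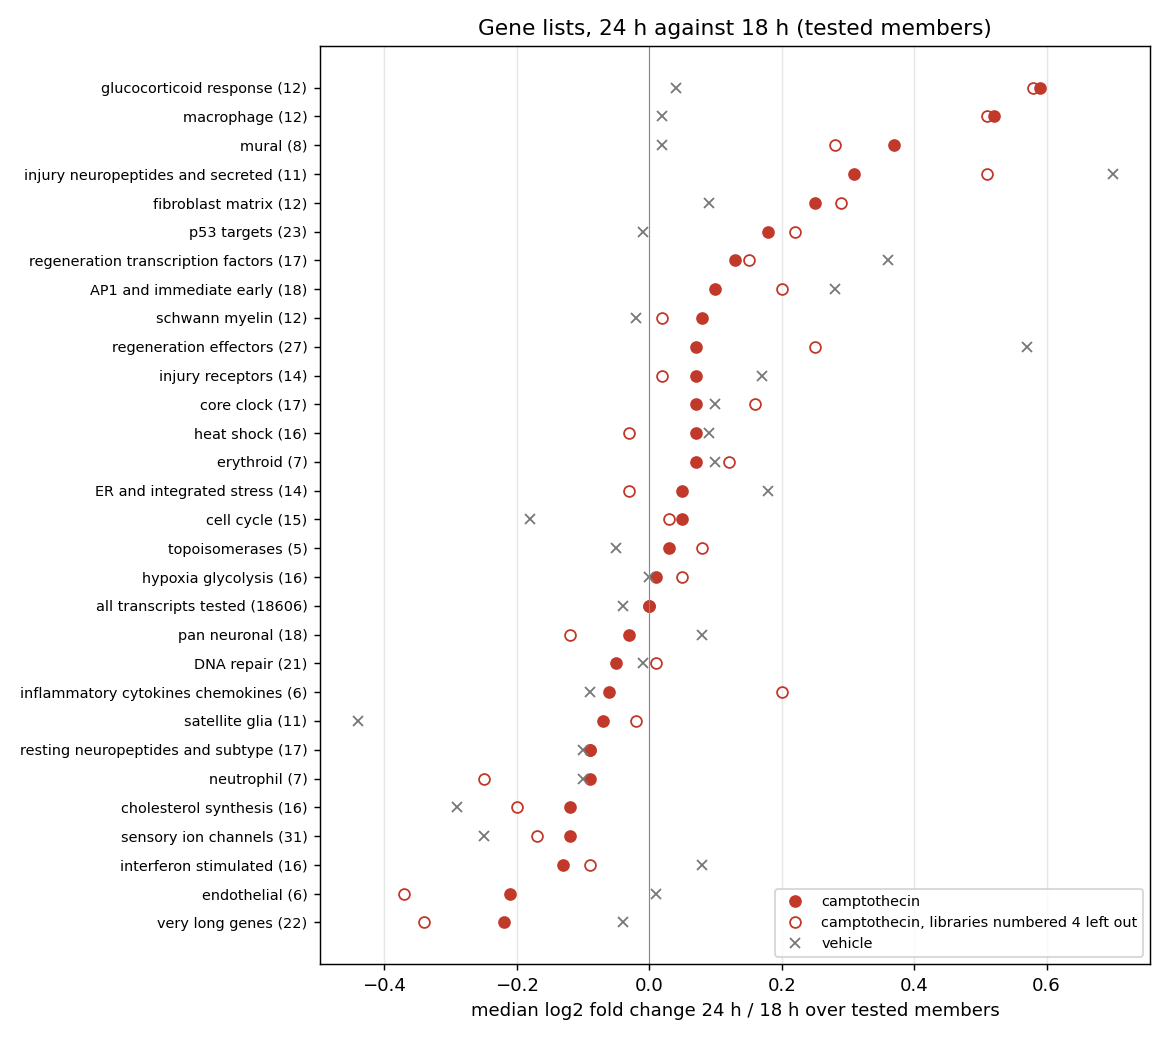
Median log2 fold change of 24 h against 18 h over the tested members of each gene list with at least 5 of them (horizontal axis), under camptothecin with all libraries (filled), without the libraries numbered 4 (open) and in vehicle (cross); the number of tested members is in brackets. Glucocorticoid-responsive and macrophage genes have the highest camptothecin medians (0.59 and 0.52) and very long genes the lowest (-0.22).

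The heat shock, interferon-stimulated and cholesterol synthesis lists had medians of 0.07, -0.13 and -0.12. Among 16 heat shock genes, 2 were higher at an unadjusted p under 0.05 (2.55% of all tested) and 1 was lower (2.5%). The chaperone partner Dnajb1 measured 124, 142 and 144 CPM and then 189, 229, 183 and 139 CPM (0.44 ± 0.13). Library 4 of 24 h made its groups overlap. The small heat shock protein Hspb8 was higher (0.23 ± 0.10) and Dnaja1 was lower (-0.56 ± 0.17), both with no overlap. The median of this list was -0.03 without the libraries numbered 4. Of 16 interferon-stimulated genes, 2 were lower at an unadjusted p under 0.05, where 2.5% of all tested were. Ifit1, an antiviral RNA-binding protein, measured 235, 248 and 169 CPM at 18 h and 119, 106, 126 and 174 CPM at 24 h (-0.73 ± 0.21), where library 4 of 24 h alone overlapped, and Ifi44 gave -0.66 ± 0.31. The cholesterol synthesis enzymes Msmo1 (-0.87 ± 0.27) and, on a transcript annotated as a retained intron, Lss (-0.70 ± 0.31) were lower at an unadjusted p under 0.05 (2.5% of all tested). Vehicle gave -1 and -0.76. Of the 16 genes in that list, 2 had a log2 fold change above 0. The median was -0.12 against -0.29 in vehicle, or -0.2 against -0.18 without the libraries numbered 4. Slc2a1, the glucose transporter, was higher with no overlap (0.33 ± 0.14).

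Across the whole table, leaving out unnamed loci, the smallest p-values for higher levels after Cckbr and Ccl9 were those of Arhgef5, an exchange factor for small GTPases, Notch1, the receptor, Cecr6 and Glul. Notch1 measured 23.3 to 24.5 CPM at 18 h and 33.9 to 41.5 CPM at 24 h. Its 18 h libraries lay close together and the 24 h libraries all stood above them, with a log2 fold change of 0.60 ± 0.15 (unadjusted p = 0.000812) and 0.02 ± 0.17 in vehicle. Glul, the glutamine synthetase of satellite glia, measured 678, 658 and 734 CPM and then 1010, 972, 876 and 788 CPM (0.40 ± 0.11), and vehicle gave 0.48 ± 0.11. Arhgef5 (1.77 ± 0.45) was at 1.51 to 2.20 CPM and then 3.72 to 9.34 CPM, and Cecr6 (2.69 ± 0.70) at 0.807 to 2.85 CPM at 24 h.

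For lower levels, leaving out unnamed loci, the smallest p-values included those of BC023105, Lgmn, Col25a1, Lrrtm2 and Eif2s3y. Lgmn, a lysosomal protease, stood at 10.4, 10.5 and 8.51 CPM and then at 6.11, 6.07, 5.55 and 3.39 CPM (-0.89 ± 0.22), with no overlap. Col25a1, a membrane collagen of neurons, stood at 16.8, 14.1 and 11.9 CPM and then at 4.84, 9.66, 5.95 and 4.84 CPM (-1.15 ± 0.30), also with no overlap. The Eif2s3y transcript measured 13.6, 10.2 and 13.8 CPM and then 2.19, 2.61, 2.78 and 9.97 CPM. Library 4 of 24 h stood near 18 h, and the log2 fold change was -1.52 ± 0.41 with it and -2.28 without it (adjusted p = 0.0102 by edgeR). The other 2 transcripts of this gene gave -0.53 and 0.05, and all 3 are annotated as retained introns. The processed pseudogene BC023105 (-1.95 ± 0.48) was under 1 CPM in every 24 h library.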

How the data were processed

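Ganglion RNA was turned into cDNA with a Nugen Ovation kit and read from both ends, per the labels' protocols, which also mention immunoprecipitated or flow-through RNA. The submitters' processing notes name CASAVA 1.8.2, limma and mm10. Not given in the sources used here were aligner, counter, annotation and strand setting. The deposited table held, per the file headers, raw counts of 19571 transcripts, the authors' log2-scale values, their log2 fold changes and their p-values. Isoforms were counted separately, so reads shared by isoforms or near-identical copies are uncertain. Column letters had no legend. B was read as camptothecin because B means minus A means equalled the authors' contrast of camptothecin with vehicle to within 8.70e-14, against 4.32 with the letters exchanged. Of the 24 labelled samples, 5 were not analysed here.

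The counts went into edgeR 4.0.16 (R 4.3.3). A filterByExpr minimum of 10 counts and a total of 15 kept 18606 transcripts and dropped 965. After TMM scaling, a single quasi-likelihood model with 6 group means covered all 19 libraries (13 residual degrees of freedom). Time contrasts were taken in each arm, with their difference, two-sided, Benjamini-Hochberg adjusted over the whole table at 0.05. CPM use TMM-scaled totals of the tested transcripts. An exact permutation test of 3 libraries against 4 cannot go below 0.0571. Transcripts without a symbol (291) held 0.501% to 0.568% of counts. Each of 33 gene lists used 1 transcript per symbol, that with the highest mean count. Coordinates are GENCODE's on GRCm38, which is mm10 (97.8% of IDs matched). The scripts were tested on simulated data.

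The comparison, the lists and the naming rule were chosen with earlier results of these data known. Named transcripts were the 6 smallest p-values in each direction, since none passed, leaving out unnamed loci and those under 1 CPM in the higher group, up to 4 smallest p-values of each list, 12 fixed genes, and the 6 smallest p-values for the difference between arms. Those called only in an alternative, and vehicle calls picked out for the text, were chosen after their values were seen. Alternatives were DESeq2 1.42.0, limma 3.58.1 on voom weights and on the deposited values, other scalings, no filter, fewer groups, a replicate block, depth and GC terms, counts summed by symbol, and leaving out libraries. The design had assumed 4 libraries in every group. A few that met these criteria are not reported here.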

Additional observations from a re-analysis of the deposited data

Results flagged for a closer look

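Of 85 values examined over the 4 camptothecin libraries of 24 h, 8 had a library far from the other 3. For independent, normally spread values chance flags about 1 in 20 such groups. Most values here belong to transcripts picked on these same libraries, and some move together, so that rate does not apply to them. Library 4 was the lowest for Cckbr (22.2 CPM, others 28.5 to 29.1 CPM) and for Ccl9 (3.49 CPM, others 15.7 to 16.9 CPM), and the highest for the Eif2s3y transcript (9.97 CPM, others 2.19 to 2.78 CPM). Library 3 was the highest for Rarb (11.7 CPM, others 6.46 to 6.68 CPM) and for the muscle genes Ckm (4.84 CPM, others at most 0.807 CPM), Acta1 (18.8 CPM, others at most 2.88 CPM) and Actn3 (11.8 CPM, others at most 1.38 CPM). Library 1 was the highest for Fn1 (277 CPM, others 150 to 171 CPM).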

How the results depend on the processing

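Under camptothecin, the 0 higher and 0 lower transcripts stayed at 0 under the other scalings, limma, no filter, fewer groups, the depth and GC terms and counts summed by symbol. DESeq2 gave 1 higher (Cckbr, adjusted p = 0.0321). Leaving out all libraries numbered 4, chosen after the data were seen, gave 5 higher and 3 lower. Leaving out single libraries gave 0 to 1 higher and 0 to 1 lower, namely Acvr1c (3.13) without 18 h library 4, and Ccl9 and 1 transcript of Eif2s3y without 24 h library 4. The difference between arms stayed at 0 but for 4 lower with DESeq2 and 1 higher (Zbtb16) without the libraries numbered 4; leaving out single libraries gave 0 to 0.

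The vehicle counts varied more. The 30 rises became 225 with DESeq2, 12 with limma-voom, 61 with limma on the deposited log2-scale values, 47 with DESeq2 size factors, 48 with upper-quartile scaling, 19 with the GC trend removed and 0 with depth as a covariate, and ran from 5 to 70 when single libraries were left out. The 13 falls became 135 with DESeq2, 50 with the deposited values, 29 with upper-quartile scaling, 67 with only the groups compared, 34 with counts summed by symbol, 111 without the libraries numbered 4, 3 with the GC trend removed and 0 with depth as a covariate, and ran from 0 to 6 when single libraries were left out; each of the 6 vehicle libraries left out moved at least 1 of these counts by more than 1.5 times. The cause was not tested. Mean depth was higher at 24 h than at 18 h in both arms.

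Samples of 18 h and 24 h under camptothecin share numbers 2, 3 and 4, whose deviations correlated at -0.0337, 0.163 and 0.427, so the numbers were not taken to pair samples. With the replicate block, 62 transcripts fell in vehicle, and the camptothecin counts stayed at 0.

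Of 1593 values of the 84 named transcripts under the alternatives, 1576 kept their direction and their side of the threshold, 6 reversed and 11 passed. With depth as a covariate Sox11 became -0.03, Stat3 -0.06 and Srek1 0.07. Leaving out single libraries gave Npy a range from -0.02 (without 18 h library 3) to 0.88, Actn3 from -0.20 (without 24 h library 3) to 2.22 and Stat3 from -0.08 (without 24 h library 4) to 0.42.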
